A study of Mus musculus with 8 samples.

Results

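The genes described are 9 DNA methylation writers, erasers and readers, namely Dnmt1, Uhrf1, Dnmt3a, Dnmt3b, Tet1, Tet2, Tet3, Mbd1 and Mbd2. They were chosen by symbol, matched to the gene identifiers of the tables. All 9 were found in the NSC table of 47729 genes and in the astrocyte table of 40562 genes, and all 9 passed the filter on low counts in both cell types.

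RNA was sequenced from cultured cells of C57BL/6 mice that the labels call S89G-DMP1 or WT. All samples are labelled as 10 weeks old, whereas the methods state an older age for the mice of the astrocyte cultures. The S89G-DMP1 mice are homozygous knock-in animals in which a serine of dentin matrix protein 1 (DMP1), the attachment site of a sugar chain, is replaced by glycine. Astrocytes (AST) came from the cortex, were grown in serum-containing medium and gave 1 library per genotype. Neural stem cells (NSC) came from the subventricular zone, were grown as serum-free neurospheres and gave 3 libraries per genotype. The labels call the NSC libraries triplicates without saying whether they are separate mice or cultures, so p-values measure the spread between these samples, which may be technical. The comparison addressed here is whether the transcripts of the DNA methylation machinery differed between the genotypes in either cell type.

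In mammals DNA methylation sits mainly on the cytosine of CG dinucleotides. Dnmt3a and Dnmt3b place it on unmethylated DNA, while Dnmt1, guided by Uhrf1 to freshly copied DNA, carries the pattern through replication. The Tet enzymes oxidize the methyl group, which opens the way to its removal, and Mbd1 and Mbd2 bind methylated CG sites and recruit repressors. In the brain Dnmt3a is known for its part in the turn of neural stem cells to neurons and glia.

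In NSCs 1 of the 9 genes, Dnmt3a, differed between the genotypes past the test's threshold, against 15.8% of all tested genes. Dnmt3a was lower in S89G-DMP1 by 17.5% (log2 fold change -0.28, SE 0.06, n = 3 per genotype, Benjamini-Hochberg adjusted p = 0.000365 by the quasi-likelihood test of edgeR). In the astrocyte libraries 7 of 9 genes were higher in S89G-DMP1 and both readers were lower, where 50.5% of all genes were higher, with Uhrf1 at 4.51 times and Dnmt3a at 3.61 times the WT level. Astrocyte differences compare 1 library with 1 library, and they have no replicate check.

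The NSC libraries held 2354615 to 2588130 counted reads and the astrocyte libraries 13016924 (S89G-DMP1) and 14008670 (WT). NSC libraries of the same genotype differed by little more than counting noise in the closest pair (chi-square per gene 1.07) and by up to 1.51 in the others. Libraries of different genotypes differed by more (3.17 to 4.06). None was taken as a copy of another, but these values do not tell technical repeats from separate cultures. Dmp1 itself was counted 6, 3 and 5 times in the S89G-DMP1 NSC libraries and 18, 21 and 16 times in the WT libraries, a fall of 1.90 on the log2 scale (SE 0.38, adjusted p = 0.00013, edgeR). By limma on log2(TPM + 1) Dmp1 was at -1.50 and was not called (adjusted p = 0.0506). In astrocytes it was counted 119 times in S89G-DMP1 and 2 times in WT (log2 ratio 4.78, 95% counting interval 3.82 to 8.77). These tables hold no reads, so they do not check the altered base. In such bulk samples fewer cells of a type and less RNA per cell cannot be told apart.

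The astrocyte libraries differed in more than genotype. Xist, which is transcribed from the inactive X chromosome of females, had 74 counts in S89G-DMP1 and 12172 in WT, and the Y-linked Ddx3y had 1277 and 0 counts. Thus the WT library carried female and the S89G-DMP1 library mainly male transcripts, and sex and genotype cannot be told apart there. The astrocyte marker Gfap had 901 counts in S89G-DMP1 and 90 in WT, Sox2 had 2705 and 30, and the fibroblast gene Col1a2 had 1224 and 9347. The 10 fibroblast markers summed to 2118 CPM in S89G-DMP1 and 7574 in WT, the 10 astrocyte markers to 1301 and 453, and the 8 microglia markers to 851 and 582. Pecam1 of endothelium had 7 and 16 counts and Aif1 of microglia 169 and 66. In every NSC library Xist and Ddx3y were both present without a difference that passed the test (adjusted p = 0.798 and 0.909, edgeR), and Sox2 was present at 761 to 890 counts. The microglia markers summed to at most 0.856 CPM per NSC library, and Col1a2, Dcn, Lum and Twist2 of fibroblasts and Cdh5, Cldn5 and Emcn of endothelium were at 0. Other markers of these lists differed between the NSC groups. The 10 fibroblast markers summed to 30.5 to 43.4 CPM in S89G-DMP1 and 47.8 to 54.3 in WT, with Pdgfra called lower, and the 8 endothelial markers to 5.56 to 10.53 and 2.11 to 4.27 CPM, with Flt1 called higher (12 to 16 counts against 2 to 6, log2 1.79, SE 0.43). The 10 astrocyte markers summed to 2129 to 2186 CPM in S89G-DMP1 NSCs and 1599 to 1652 in WT, with Aldh1l1, Slc1a3 and Gja1 called higher. In the NSCs DESeq2 and limma called 0 genes of the fibroblast and endothelial lists, and 3 and 1 of the astrocyte list. The 5 markers called by edgeR are named after their values were seen. The part of these differences in the results for the methylation genes was not tested. Gfap had at most 6 counts per NSC library.

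To show the DNA in front of the genes, promoter windows were read from the RefSeq promoter table of the GRCm38.p6 build, on the strand of the gene. Of the 7 members examined, which had 12 windows, a match to one of the octamers TTTCCCGC, TTTGGCGC, TTTGCCGC or TTTCGCGC on either strand was found for Dnmt1 and Uhrf1, in 1 window each. These octamers are forms of the element bound by E2F factors, which drive genes of DNA replication. Among all 32851 RefSeq windows, 1.86% held a match in the 250 bases before the start. The 30 bases around each match are printed with the octamer in capitals. The Dnmt1 stretch is chr9:20952824-20952853 (minus strand), 219 bases before a transcript start and inside an annotated exon of the gene, and the Uhrf1 stretch is chr17:56304117-56304146 (plus strand), 185 bases before a transcript start and in an intron of a longer transcript.
Dnmt1: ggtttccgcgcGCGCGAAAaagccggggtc
Uhrf1: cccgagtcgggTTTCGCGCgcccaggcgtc

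The whole 250-base window of Uhrf1 (chr17:56304063-56304312, plus strand, 30 CG dinucleotides) is set beside 1 of Dnmt3a (chr12:3806730-3806979, plus strand, 38 CG dinucleotides), since both genes had NSC groups that did not overlap, in opposite directions. Uhrf1 has 2 windows and the 1 with the octamer is shown, while the other holds 10 CG dinucleotides. Dnmt3a has 3 windows, with 38, 40 and 15 CG dinucleotides. Capitals mark the same octamer, of which the 3 Dnmt3a windows and the other Uhrf1 window hold none.
Uhrf1: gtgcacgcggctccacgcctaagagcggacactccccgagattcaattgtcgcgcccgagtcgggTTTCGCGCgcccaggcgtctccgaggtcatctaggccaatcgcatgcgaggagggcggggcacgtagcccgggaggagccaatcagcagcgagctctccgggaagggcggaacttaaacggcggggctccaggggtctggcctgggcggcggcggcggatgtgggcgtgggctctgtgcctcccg
Dnmt3a: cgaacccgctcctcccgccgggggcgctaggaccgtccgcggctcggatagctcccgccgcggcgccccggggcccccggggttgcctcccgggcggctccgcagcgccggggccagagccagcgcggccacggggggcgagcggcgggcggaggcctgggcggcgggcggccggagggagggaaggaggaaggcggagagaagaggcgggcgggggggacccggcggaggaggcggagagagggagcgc

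The windows shown are rich in CG dinucleotides, against a median of 6 per window over the table, where 17.9% of windows hold at least 20. A match or its absence describes letters in these windows only.

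Levels are given in every library as CPM, the count divided by the library total after TMM scaling, a correction for differences in composition between libraries. In the NSC comparison 15.8% of the 11194 tested genes passed the test, 7.08% higher and 8.76% lower in S89G-DMP1. Of the 9 members, 1 passed, and it was lower.

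Dnmt3a (chr12:3806007-3914443, GRCm38, plus strand), the de novo methyltransferase of postnatal brain, had levels of 260, 243 and 251 CPM in the S89G-DMP1 NSC libraries. The WT libraries gave 316, 301 and 297 CPM. Every S89G-DMP1 library lay below every WT library, with means of 251 ± 8.83 and 305 ± 10.3 CPM (SD, n = 3 each). The 95% interval of the log2 difference ran from -0.40 to -0.16. The exact permutation test over libraries, 2-sided, gave p = 0.1, the smallest it allows with 3 against 3. Leaving out each library in turn kept the call in 6 of 6 fits, with log2 fold changes from -0.30 to -0.25. It was not called by limma on the deposited TPM values (adjusted p = 0.199). A long noncoding gene on the opposite strand, Dnmt3aos, shares 0.799% of its exonic bases, and whether counting used the strand is not given in the sources used here.

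Dnmt1 (chr9:20907209-20959888, minus strand), the maintenance methyltransferase, was the most highly counted of the 9 genes in NSCs. Its levels were 609, 629 and 623 CPM in S89G-DMP1 and 576, 629 and 617 CPM in WT. The groups overlapped, and the means of 620 ± 10.3 and 607 ± 27.7 CPM (SD, n = 3 each) differed by less than the spread of the WT libraries. The log2 difference was 0.03 with a 95% interval from -0.07 to 0.13 (adjusted p = 0.759, edgeR).

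Uhrf1 (chr17:56303321-56323486, plus strand), which recognizes hemimethylated CG sites and brings in Dnmt1, had 311, 331 and 303 CPM in S89G-DMP1 and 273, 295 and 284 CPM in WT. The lowest S89G-DMP1 library lay above the highest WT library, with means of 315 ± 14.4 and 284 ± 11.1 CPM (SD, n = 3 each). The log2 difference of 0.15 (95% interval 0.03 to 0.27) did not pass the adjusted threshold (adjusted p = 0.0779, edgeR; permutation p = 0.1, exact, the smallest possible). Uhrf1 was called under none of 15 alternative settings. With Dnmt3a, it made 2 of 9 members whose NSC groups did not overlap, 1 higher and 1 lower. Among all tested genes 14.8% did so upward and 16.0% downward, 30.7% in all, so the members did not stand out from the other genes in this count.

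Dnmt3b (chr2:153649450-153687730, plus strand), the second de novo enzyme and best known from the early embryo, was barely detected in NSCs. It had 9, 11 and 10 counts in S89G-DMP1 and 10, 10 and 14 in WT. With a log2 interval from -0.84 to 0.58 around -0.13 (adjusted p = 0.861, edgeR), differences within that interval were not detectable at this depth.

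**Figure D1:**
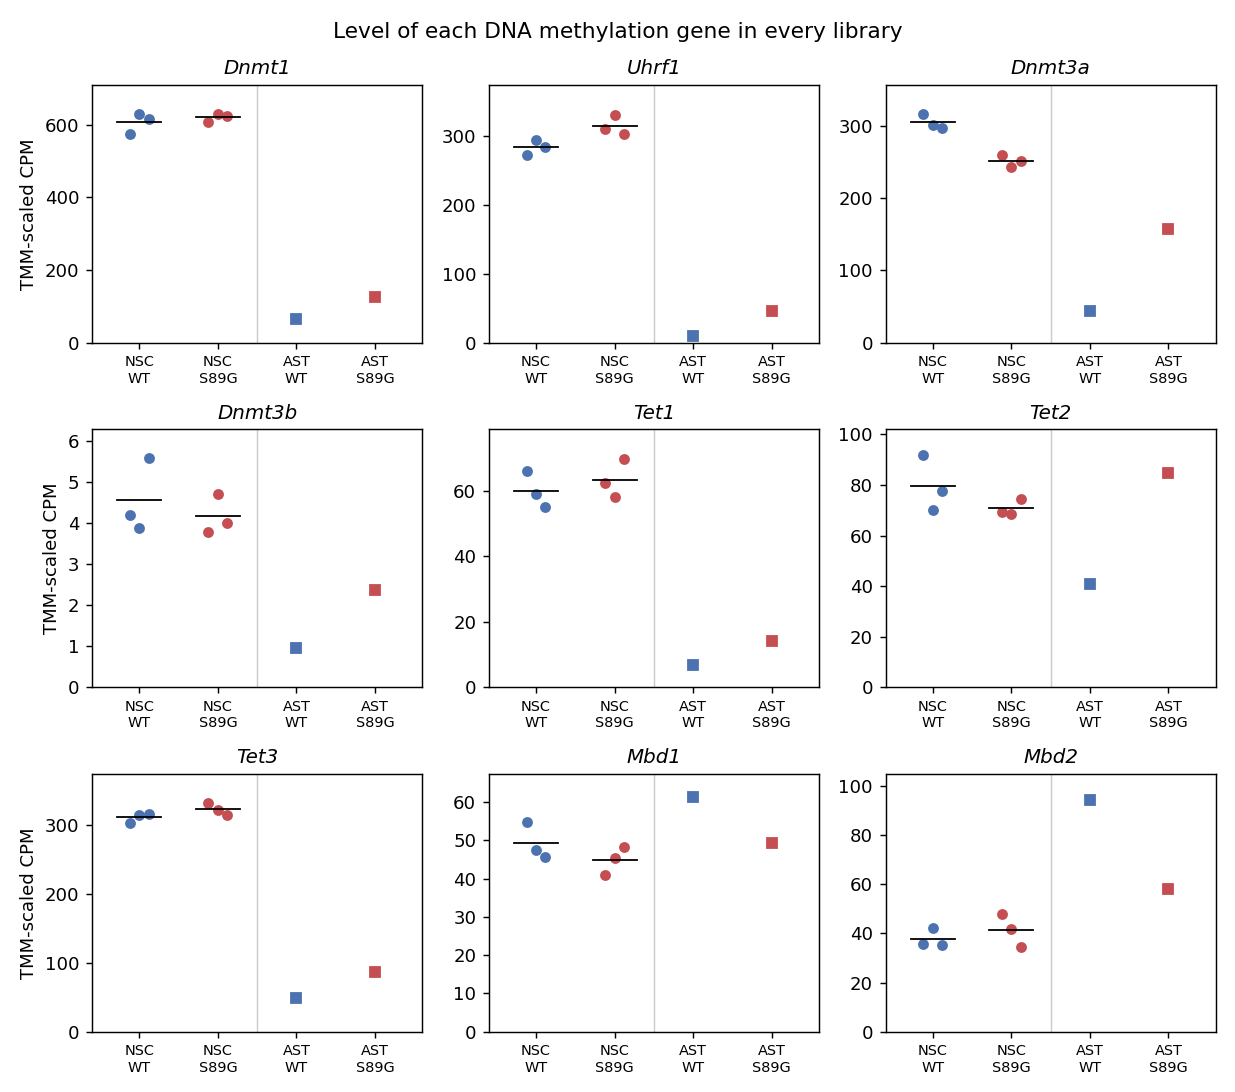
Level of each of the 9 genes in every library, in TMM-scaled CPM on axes that start at 0. Circles are the 3 NSC libraries per genotype with their mean as a bar, squares are the single astrocyte libraries, and S89G stands for S89G-DMP1. NSC circles of the genotypes separate for Uhrf1 (S89G-DMP1 higher) and Dnmt3a (S89G-DMP1 lower), and the astrocyte squares are higher in S89G-DMP1 for every gene except Mbd1 and Mbd2.

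Among the erasers 0 of 3 NSC differences passed the test, by edgeR or DESeq2, and 0 had an unadjusted p under 0.05. Tet3 (chr6:83362373-83459084, minus strand), the Tet enzyme with the most counts in NSCs, had 332, 322 and 315 CPM in S89G-DMP1 and 303, 315 and 317 CPM in WT (log2 difference 0.05, interval -0.06 to 0.17, adjusted p = 0.614, edgeR). Tet2 (chr3:133463679-133545139, minus strand), which lacks the CXXC domain of its relatives, had 69.5, 68.5 and 74.6 CPM in S89G-DMP1 and 91.9, 69.9 and 77.5 CPM in WT. The groups overlapped through the second WT library, and the log2 difference was -0.16 (interval -0.36 to 0.03, adjusted p = 0.27, edgeR). Tet1 (chr10:62804570-62908996, minus strand), the founding member of the family, had 62.3, 58.2 and 69.8 CPM in S89G-DMP1 and 66.2, 59.0 and 55.1 CPM in WT. Its groups overlapped too, with a log2 difference of 0.08 (interval -0.12 to 0.29, adjusted p = 0.663, edgeR). With a library left out the Tet1 difference ran from 0.0054 to 0.15, and by limma on log2(TPM + 1) it was 0.44 (adjusted p = 0.526).

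The readers were the least counted members after Dnmt3b in NSCs. Mbd1, which also binds unmethylated CG sites through a CXXC domain, had 40.9, 45.4 and 48.1 CPM in S89G-DMP1 and 54.8, 47.4 and 45.5 CPM in WT (log2 difference -0.13, interval -0.36 to 0.10, adjusted p = 0.497, edgeR). Mbd2, which targets the NuRD repressor complex to methylated DNA, had 48.0, 41.9 and 34.5 CPM in S89G-DMP1 and 35.8, 42.3 and 35.1 CPM in WT (log2 difference 0.13, interval -0.13 to 0.38, adjusted p = 0.564, edgeR). For both genes the groups overlapped, and the intervals leave room for differences as large as that of Dnmt3a.

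In the astrocytes 30.1% of the 15680 genes counted differed at least 2-fold, 17.3% higher and 12.8% lower in S89G-DMP1, and 50.5% were higher at any size. Of the 9 members, 4 were at least 2-fold higher (Uhrf1, Dnmt3a, Dnmt3b and Tet2) and 0 at least 2-fold lower. Their median log2 ratio was 1.00 against 0.01 over all genes. Scaling by library size alone moved the median of all genes to 0.30 and that of the members to 1.28, and it put 7 members past 2-fold, all higher, where 22.2% of all genes were at least 2-fold higher and 9.66% lower.

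Uhrf1 had 669 counts in the S89G-DMP1 astrocyte library and 129 in WT, or 46.5 and 10.2 CPM. Its log2 ratio of 2.17 was the largest of the 9 genes (95% counting interval 1.91 to 2.47), and 8.64% of all genes were at least 4-fold higher. Dnmt3a had 2264 and 550 counts, 157 and 43.4 CPM (log2 ratio 1.85, interval 1.72 to 1.99). Its direction was thus opposite to that in NSCs. Dnmt1 had 1829 and 842 counts, 127 and 66.5 CPM, and stayed under 2-fold (log2 ratio 0.93, interval 0.81 to 1.05). Dnmt3b had 34 and 12 counts, 2.36 and 0.948 CPM, with a wide interval of 0.33 to 2.4 around 1.20. These intervals cover counting error only, and the part of sex and of the differing marker levels in these ratios was not tested.

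All 3 erasers were higher in the S89G-DMP1 astrocyte library. Tet2 had 84.6 CPM in S89G-DMP1 and 40.8 in WT (log2 ratio 1.05), and Tet1 had 14 and 6.95 CPM, just under the 2-fold rule (log2 ratio 0.998). Tet3 had 86.4 and 48.9 CPM (log2 ratio 0.82). The readers went the other way, Mbd2 with 57.9 CPM in S89G-DMP1 and 94.1 in WT (log2 ratio -0.70) and Mbd1 with 49.2 and 61.3 CPM (log2 ratio -0.32). Scaled by library size alone, Mbd1 was close to equal (log2 ratio -0.02) and Mbd2 was still lower in S89G-DMP1 (-0.41).

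**Figure D2:**
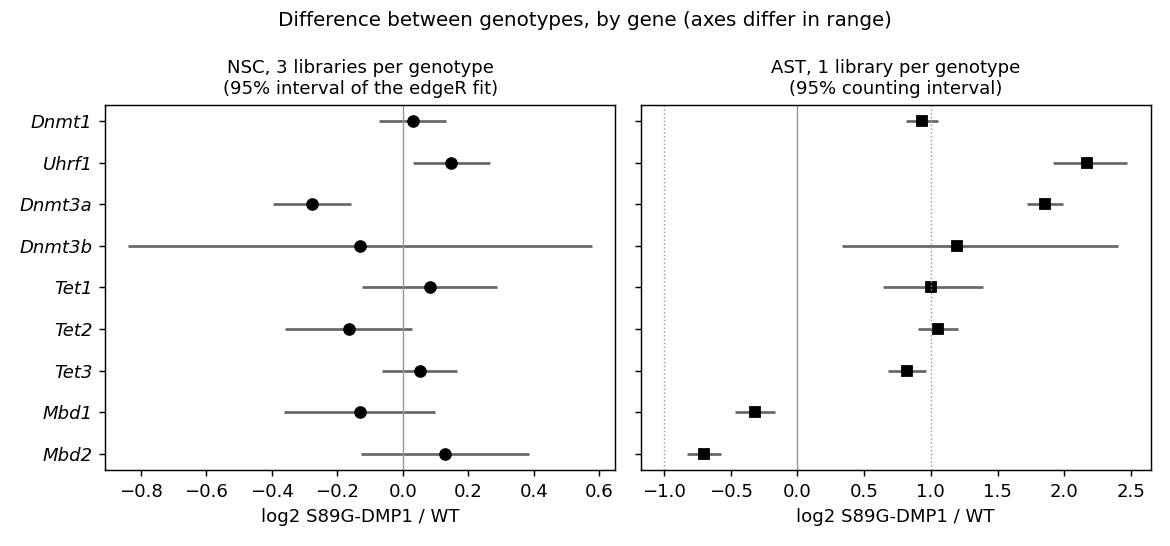
Log2 ratio of S89G-DMP1 to WT for each gene in NSCs (left, edgeR estimate with its 95% interval, 3 libraries per genotype) and astrocytes (right, 1 library per genotype with a 95% interval for counting error only). The dotted lines mark 2-fold, and the axes differ in range. In NSCs the intervals of Dnmt3a (below 0) and Uhrf1 (above 0) do not reach 0, while in astrocytes 7 genes lie to the right of 0 and Mbd1 and Mbd2 to the left.

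To set genes beside each other, levels per transcript length are needed. By the deposited TPM values, NSCs held 303 ± 10.4 TPM of Dnmt1, 235 ± 2.07 of Uhrf1 and 87.2 ± 3.56 of Dnmt3a in WT, and 303 ± 6.23, 260 ± 14.2 and 71.3 ± 5.42 in S89G-DMP1 (SD, n = 3 each). Dnmt1 made up 76.2% to 80.9% of the TPM summed over the 3 methyltransferases, and Tet3 59.6% to 69.2% of that over the 3 Tet genes. By the deposited astrocyte FPKM values the order was different, with Dnmt3a at 74.8 FPKM and Dnmt1 at 25.6 in S89G-DMP1, and 16.9 and 10.9 in WT. Tet2 was at 26.5 and Tet3 at 19.3 FPKM in S89G-DMP1, and at 10.4 and 8.91 in WT. The FPKM of Dnmt3a rests on a length of 2.32 kb, whereas its exons in the GENCODE annotation span 16.6 kb together. Per exonic kb, Dnmt1 lay above Dnmt3a in both astrocyte libraries (17.2 and 9.45 CPM per kb in S89G-DMP1, 9.01 and 2.61 in WT) and Tet3 above Tet2 (5.18 and 5.01 in S89G-DMP1, 2.93 and 2.42 in WT). The order of these genes in astrocytes therefore depends on the length used. So does that of Dnmt1 and Dnmt3a in NSCs. At the lengths behind the FPKM, Dnmt1 had 110 and Dnmt3a 131 CPM per kb in WT NSCs, and 113 and 108 in S89G-DMP1. Per exonic kb they had 82.3 and 18.3 in WT, and 84.1 and 15.1 in S89G-DMP1. Tet3 lay above Tet2 in NSCs at both lengths (62.8 against 22.6 and 18.7 against 4.73 in WT). The NSC share of Dnmt1 thus rests on the lengths behind the deposited TPM values.

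Ratios of counts within a library need no scaling between libraries. The ratio of Dnmt1 to Dnmt3a, maintenance over de novo enzyme, was 2.34, 2.59 and 2.49 in the S89G-DMP1 NSC libraries and 1.82, 2.09 and 2.08 in WT. All 3 S89G-DMP1 values exceeded all WT values, with means of 2.47 ± 0.127 and 2.0 ± 0.153 (SD, n = 3; exact permutation p = 0.1, the smallest possible). In astrocytes the ratio was 0.808 in S89G-DMP1 and 1.53 in WT. The S89G-DMP1 ratio was thus 1.24 times that of WT in NSCs and 0.528 times in astrocytes.

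The ratio of Dnmt3a to Tet3, a writer over the eraser most counted in NSCs, did not overlap between the NSC groups either. It was 0.783, 0.754 and 0.796 in S89G-DMP1 NSCs and 1.04, 0.956 and 0.938 in WT. In astrocytes it was 1.82 and 0.889, so S89G-DMP1 was 0.794 times WT in NSCs and 2.05 times WT in astrocytes. The ratio of Uhrf1 to Dnmt1, partners at the replication fork, was 0.510, 0.526 and 0.486 in S89G-DMP1 NSCs and 0.473, 0.469 and 0.460 in WT. It was higher in S89G-DMP1 in both cell types, 1.09 times in NSCs and 2.39 times in astrocytes (0.366 and 0.153). The ratios of Tet3 to Tet2, of Mbd1 to Mbd2 and of Dnmt3a to Tet2 overlapped between the NSC groups. Dnmt3a to Tet2 was 3.36 to 3.75 in S89G-DMP1 NSCs and 3.44 to 4.30 in WT (exact permutation p = 0.4). In the astrocytes it was 1.86 in S89G-DMP1 and 1.07 in WT.

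**Figure D3:**
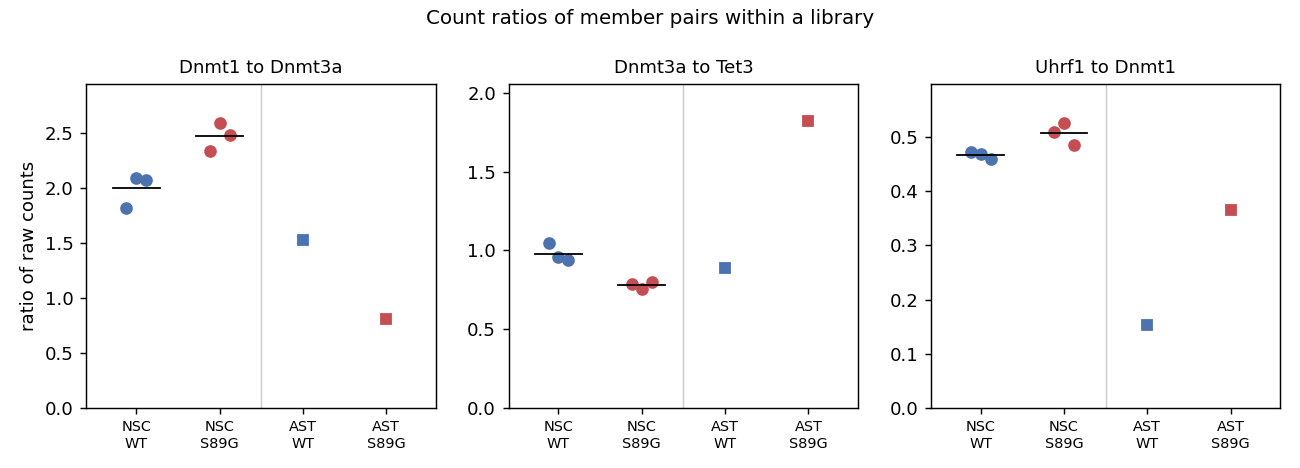
Ratio of raw counts of 3 gene pairs within each library, on axes that start at 0. Circles are NSC libraries with the mean as a bar and squares are single astrocyte libraries. S89G-DMP1 lies above WT in NSCs and below it in astrocytes for Dnmt1 to Dnmt3a, the reverse for Dnmt3a to Tet3, and above WT in both for Uhrf1 to Dnmt1.

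Dnmt1 and Uhrf1 act on freshly copied DNA, so genes of the cell cycle were placed beside them. Of 26 S-phase genes, 11 rose and 0 fell in S89G-DMP1 NSCs (median log2 0.21, 26 of 26 above 0, with 7.08% of all genes called higher), although DESeq2 called 3 and edgeR 6 without the third S89G-DMP1 library. All 10 mitosis genes rose (median 0.28), Mki67 by 0.36 and Top2a by 0.30, and DESeq2 called 6. Pcna, the sliding clamp that also binds Dnmt1, had a log2 difference of 0.14 (adjusted p = 0.0818, edgeR) and the helicase subunit Mcm2 of 0.11 (adjusted p = 0.237). In the astrocytes 18 of 25 S-phase genes and 10 of 10 mitosis genes were at least 2-fold higher in S89G-DMP1, where 17.3% of all genes were, with medians of 1.22 and 3.26. Mki67 had 3312 counts there against 183 in WT, Top2a 2659 against 254, Pcna 1187 against 574 and Mcm2 770 against 249.

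Per 100 counts of the S-phase list, Dnmt1 had 15.6, 16.0 and 15.2 counts in S89G-DMP1 NSCs and 16.8, 18 and 17.9 in WT. The S89G-DMP1 values were all lower, at 0.887 times the WT mean, and the astrocyte libraries gave 14.9 and 16.8, or 0.888 times. The S-phase list itself was higher in S89G-DMP1, at 3897 to 4108 CPM against 3423 to 3495 in NSCs and 853 against 397 in the astrocytes, whereas the CPM of Dnmt1 overlapped between the NSC groups, so its lower ratio in NSCs went with a higher denominator. Uhrf1 per 100 S-phase counts overlapped between the NSC groups (7.37 to 8.4 in S89G-DMP1, 7.97 to 8.44 in WT) and was 5.45 against 2.57 in the astrocytes. Dnmt3a was 6.10 to 6.68 in S89G-DMP1 NSCs and 8.60 to 9.25 in WT, and 18.4 against 10.9 in the astrocytes. The raised denominator enters the Dnmt3a ratios too.

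Other genes of the pathway were followed as lists. Of 9 other methyltransferase and methyl-CpG-binding genes tested in NSCs, 0 were called by edgeR, against 15.8% of all tested genes. DESeq2 also called 0, and 0 had an unadjusted p under 0.05. Dnmt3l, the inactive cofactor of the de novo enzymes, had 0 counts in all 6 NSC libraries. In the astrocytes 1 of 9 was at least 2-fold higher, the glycosylase Mbd4 (289 and 50 counts, log2 ratio 2.30). Another 2 were at least 2-fold lower, where 17.3% of all genes were higher and 12.8% lower by that rule. The lower ones were the methyl-CpG-binding zinc finger genes Zbtb38 (609 and 2350 counts, -2.13) and Zbtb4 (1700 and 4810 counts, -1.69). At any size 6 of the 9 genes were higher in S89G-DMP1, where 50.5% of all genes were. Their median log2 ratio was 0.13, or 0.42 by library size alone.

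Among 14 partners of methylation maintenance and heterochromatin, 3 rose and 0 fell in NSCs (median log2 0.11), where 7.08% of all tested genes were called higher and 8.76% lower. These were Cdca7 (0.32, SE 0.09, adjusted p = 0.00659, edgeR), which with the remodeler Hells acts in methylating heterochromatin, and the HP1 genes Cbx5 (0.30, SE 0.05) and Cbx3 (0.28, SE 0.06). By limma on the deposited TPM values Cbx5 turned to -1.04 and Cbx3 lost its call. DESeq2 gave Cdca7 an adjusted p of 0.124, and the call was also lost without the third S89G-DMP1 library. In the astrocytes 2 of 14 were at least 2-fold higher and 0 lower, where 17.3% of all genes were higher and 12.8% lower by that rule. These were Cdca7 (114 and 17 counts, log2 ratio 2.44) and Hells (381 and 105 counts, 1.66). Hells did not pass the test in NSCs (log2 0.20, adjusted p = 0.12, edgeR).

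The NuRD complex, the repressor that Mbd2 recruits, had 1 of 9 genes called in NSCs, under the 15.8% of all tested genes. It was the histone-binding subunit Rbbp7 (log2 0.18, SE 0.06, adjusted p = 0.0381, edgeR). DESeq2 did not call Rbbp7, and its call was lost without the first or the third library of either genotype (adjusted p from 0.0727 to 0.208, edgeR). By limma on log2(TPM + 1) its difference was 0.0018 (adjusted p = 0.996). In the astrocytes 1 of 9 NuRD genes was at least 2-fold lower and 0 higher, where 12.8% and 17.3% of all genes were. It was the remodeler Chd3 (2436 and 5518 counts, log2 ratio -1.36). Of 12 genes of oxidation and base-excision repair tested in NSCs, 1 was called, also under that share, namely Gadd45g, a stress-induced gene linked to active demethylation. It fell by 0.92 on the log2 scale (SE 0.10, adjusted p = 1.65e-11, edgeR), from 97.3 ± 6.32 CPM in WT to 51.6 ± 4.78 in S89G-DMP1 (SD, n = 3 each). By limma on log2(TPM + 1) it was not called (-0.79, adjusted p = 0.166). In the astrocytes 1 of 13 oxidation and repair genes was at least 2-fold higher and 0 lower, where 17.3% and 12.8% of all genes were. It was Idh2, a mitochondrial source of the Tet cofactor 2-oxoglutarate (1323 and 331 counts, log2 ratio 1.81). The NSC difference of Idh2 was -0.17 (adjusted p = 0.0663, edgeR). It passed the threshold without the third S89G-DMP1 or the first WT library (adjusted p = 0.0405 and 0.0241, edgeR).

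The methionine and folate cycle supplies S-adenosylmethionine, the methyl donor of the Dnmt enzymes. Of its 14 genes, 5 rose and 0 fell in S89G-DMP1 NSCs and all 14 had a log2 difference above 0 (median 0.22), where 7.08% of all tested genes were called higher. Adk, which clears adenosine, rose by 0.54 (SE 0.11) and the mitochondrial folate enzyme Mthfd2 by 0.50 (SE 0.10). Mthfd1 rose by 0.33 (SE 0.07) and Shmt2 by 0.30 (SE 0.06), with adjusted p from 0.000137 to 0.000399 for these 4 genes by edgeR. In the astrocytes 2 of 14 genes were at least 2-fold lower, Mthfd2 (279 and 533 counts, log2 ratio -1.11) and Adk (685 and 1235 counts, -1.03). Only Shmt1 was at least 2-fold higher (106 and 34 counts, 1.41). Among all genes 12.8% were lower and 17.3% higher by that rule. The list median was -0.16, or 0.13 by library size alone. By limma on the deposited TPM values, 0 genes of the S-phase, mitosis, maintenance and methionine and folate lists were called in NSCs, with list medians between 0.06 and 0.28.

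**Figure D4:**
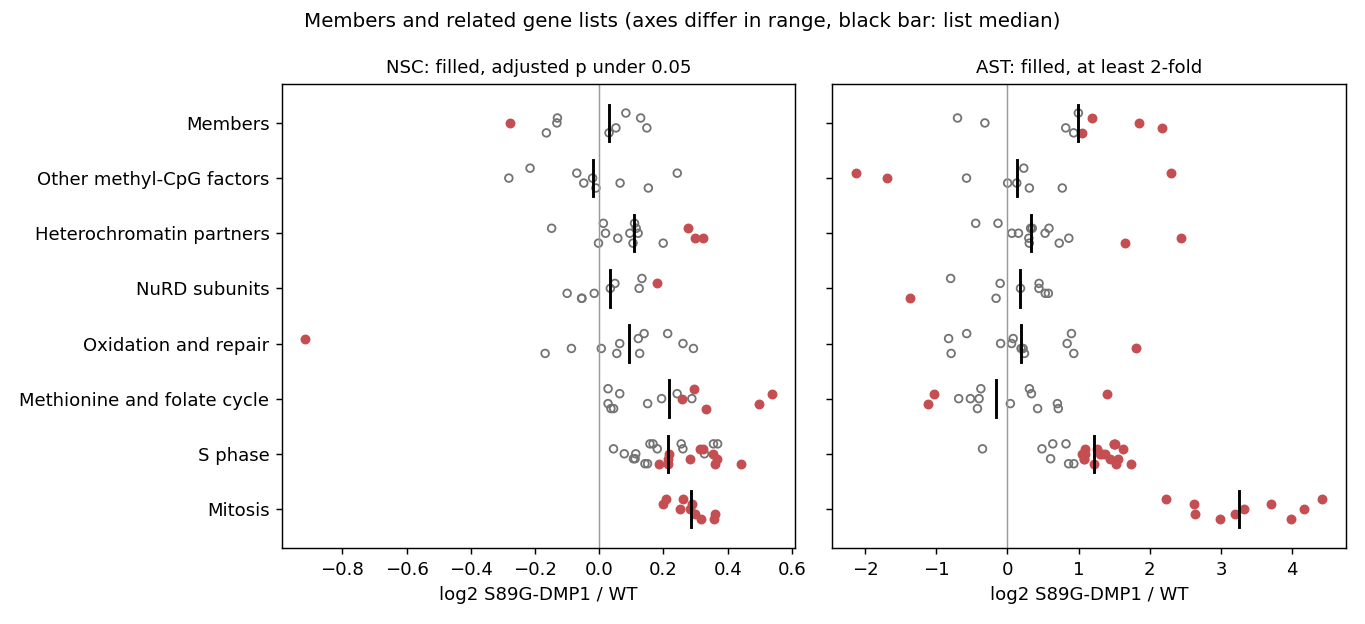
Log2 ratio of S89G-DMP1 to WT for the 9 genes (Members) and 7 related lists in NSCs (left) and astrocytes (right), 1 point per gene, with the list median as a black bar and different axis ranges. Filled points passed adjusted p 0.05 in NSCs or 2-fold in astrocytes. In NSCs the S-phase, mitosis and methionine and folate lists lie wholly above 0, and in astrocytes the mitosis list is farthest to the right with a median of 3.26.

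A set of 13 germline genes known to be silenced by promoter methylation was looked at as a readout of lost methylation. Only Brdt reached 10 counts in any library, with 13, 10 and 19 counts in S89G-DMP1 NSCs and 19, 14 and 11 in WT, and with 58 and 47 in the astrocytes. Mael, Asz1, Tex19.1, Hormad1, Stk31 and Tuba3a were at 0 in all 6 NSC libraries. The list summed to 5.99 to 8.02 CPM in S89G-DMP1 NSCs and 5.99 to 8.01 in WT, and to 5.21 and 4.58 CPM in the astrocytes. The DNA methylation level itself was not measured in these samples.

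The genes most like Dnmt3a over the 6 NSC libraries, among 5803 with a mean of at least 100 counts, were Ccbe1, Akap7 and Csdc2, each with Pearson r = 0.997 of log2 CPM. The libraries share genotype, so the likeness is a description. Ccbe1 fell by 0.57, Akap7 by 0.46 and Csdc2 by 0.66 on the log2 scale in S89G-DMP1 NSCs. In the astrocytes Csdc2 was higher (log2 ratio 2.0), as Dnmt3a was, while Ccbe1 (-2.50) and Akap7 (-0.22) were lower.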

How the data were processed

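Libraries of astrocytes (1 per genotype) and NSCs (3 per genotype) were grouped by the labels. The authors deposited raw counts per gene with FPKM values for the astrocytes and with TPM values for the NSCs. The submitters' processing notes name Bowtie2 2.0.6 and TopHat2 2.0.9 for astrocytes, and HISAT2, featureCounts, StringTie and the GRCm38 build for NSCs, without roles. The annotation, the strand setting and the astrocyte build are not given in the sources used here. The deposited TPM values list 17 NSC genes with at least 100 counts at 0, none a member, so counts were used for the main comparisons.

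In R 4.3.3, filterByExpr of edgeR 4.0.16 kept 11194 NSC genes, TMM factors scaled the libraries and a quasi-likelihood test compared the genotypes, at a Benjamini-Hochberg adjusted p of 0.05 over all of these genes. Astrocyte genes that reached 10 counts in 1 of the libraries got a log2 ratio of TMM-scaled CPM (prior count 2) and no test. Intervals for astrocytes are exact and cover counting error only. The test for NSCs was checked on simulated counts of 11096 genes, where it called 92 of 99 genes changed by a log2 of 1, 62 of 100 changed by 0.5 and 5 of 10897 unchanged. Alternatives were DESeq2 1.42.0, limma 3.58.1 on log2 TPM, other scalings, filters and priors, FPKM, a replicate block and each library left out.

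The members and lists were chosen with earlier results of these data known. Genes outside the 9 are named where they are Dmp1, Pcna, Mcm2, Mki67, Top2a, chosen cell markers, the 4 largest called (NSC) or 2-fold (astrocyte, at least 50 counts) genes per related list, or the 3 most like a called member. Symbols were matched for 47224 of 47729 NSC and 39973 of 40562 astrocyte identifiers. Gene positions are those of GENCODE for GRCm38, and promoter sequences those of RefSeq (GRCm38.p6), in which octamers were searched over the 250 bases before each start. The values of 1 gene of the related lists are not reported here.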

Additional observations from a re-analysis of the deposited data

Results flagged for a closer look

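Dnmt3a moved in opposite directions in the cell types: the log2 difference between S89G-DMP1 and WT was -0.28 in NSCs, where all 3 S89G-DMP1 libraries lay below all 3 WT libraries, and 1.85 in astrocytes, with 1 library per genotype. The ratio of Dnmt1 to Dnmt3a counts was 1.24 times as high in S89G-DMP1 as in WT in NSCs and 0.528 times in astrocytes. The ratio of Dnmt3a to Tet3 counts was 0.794 times as high in NSCs and 2.05 times in astrocytes. Both ratios contain Dnmt3a, so these are not 3 independent observations. The difference between the cell types was not tested, since the astrocytes have 1 library per genotype, and their libraries also differ in sex transcripts and in fibroblast markers. By the deposited TPM and FPKM values the Dnmt1 to Dnmt3a ratio was 1.22 times in NSCs and 0.528 times in astrocytes.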

How the results depend on the processing

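The counts of called NSC genes (1773) changed with the tool: DESeq2 called 739 genes, and limma called 106 on log2(TPM + 1) and 106 on log2(TPM + 0.1). Leaving out each NSC library gave 1363 to 1659. Of the 9 members, 0 were called under either limma setting and 1 (Dnmt3a) under the others, including each left-out library. In the astrocytes 3066 genes were past 2-fold with at least 10 counts in both libraries (4723 in the main analysis), and library size alone gave 3487 higher and 1515 lower. Members past 2-fold numbered 7 by library size alone and 7 by log2(FPKM + 0.1), against 4. Small NSC differences changed sign. Dnmt1 was at -0.0029 and -0.0030 by limma, and from -0.0055 (without the first WT library) to 0.054 with a library left out. Dnmt3b was at 0.25 and 0.31 by limma, and from -0.24 to 0.042 (without the third WT library). Zbtb38 was at 0.31 and 0.22 by limma, and from -0.17 to 0.10 (without the first WT library). Cbx5 was at -1.04 and -1.05 by limma. Chd3 was at -0.39 and -0.41 by limma, and ran from -0.24 to 0.075 with a library left out. It was at 0.075 without the third S89G-DMP1 library, 0.02 without the first WT library and 0.075 without the third. The cause was not tested. Shmt1 passed the NSC threshold without the first S89G-DMP1 or the first WT library. With the replicate number as a block 1845 genes were called and Dnmt3a kept its call. Same-numbered libraries correlated at 0.0546, 0.0137 and 0.000136 in their deviations from the group means, and not every sample correlated best with its own number, so the numbers were not taken as pairs. Among the 9 members, counting error limits Dnmt3b most in both cell types.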
